A study of Mus musculus with 8 samples.

Results

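Committed adipocyte progenitors that carried Icam1 and Col15a1 transcripts were followed in single-cell libraries from mouse inguinal fat, to ask how timed feeding was reflected in their numbers and in their transcripts. The libraries were made from the stromal vascular fraction, the cells that remain after digested fat has lost its floating adipocytes, by droplet capture with barcoded beads (10x Genomics). The mice were C57BL/6 by the labels, C57BL/6J males by the study, and no group carried a transgene or deletion. Ad-Lib mice had free access to food and gave 4 libraries (Ad-Lib 1, 3, 5 and 7), and TAN (twice-a-night) mice were fed 2 meals a night and gave the other 4 (TAN 2, 4, 6 and 8). The labels give an age of 8 weeks, the study describes older mice, and the age is therefore not certain. The study counts animals as its replicates, so each library is taken as a separate mouse, which the labels do not state. Members were selected on measured values, from barcodes with 700 to 30000 unique molecular identifiers (UMIs, counted transcripts), 200 to 8000 genes and at most 10% mitochondrial UMIs. A member had a sum of at least 10 UMIs of the fibroblast genes Pdgfra, Col1a1, Col3a1 and Dcn, at least 3 UMIs of Icam1 and Col15a1 together, at most 1 UMI of Pi16 and Dpp4 together, at most 1 of Gdf10 and F3 together, and no UMI of Ptprc, Pecam1 or Cd79a. These 13 genes are therefore described only, and their values in the fits are neither counted nor reported as tests. The rule gave 835 cells of 36370 that passed the quality limits, among 9541 stromal cells that passed the fibroblast limit.

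White fat holds a lineage of fibroblast-like progenitors from which new adipocytes form. Cells with Dpp4 and Pi16 are regarded as the less committed interstitial progenitors, cells with Icam1 as committed preadipocytes close to the vessels, and cells with F3 and Gdf10 as another type with reported anti-adipogenic properties. Committed preadipocytes surround themselves with basement membrane and begin to express lipid-handling genes under the adipogenic regulator Pparg before they fill with fat.

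Member numbers were 139, 91, 97 and 168 in Ad-Lib 1, 3, 5 and 7 and 79, 143, 33 and 85 in TAN 2, 4, 6 and 8, so that TAN 6 rested on the fewest cells. Members were deep for this dataset, with a median of 9510 to 11771 UMIs and 2810 to 3313 genes per library, and a median mitochondrial share of 1.58 to 2.26%. Neither the depth nor the mitochondrial share of members separated the groups (exact permutation p of at least 0.229, n = 4 each), though members were selected on UMIs. The median of all kept cells was 5744 ± 619 UMIs with Ad-Lib and 4633 ± 550 with TAN feeding (SD, n = 4 each; exact permutation p = 0.0571). In the same cells, mitochondrial UMIs made up a median of 2.08% ± 0.261 in Ad-Lib libraries and of 3.05% ± 0.441 in TAN libraries (n = 4 in both groups, with SD; exact permutation p = 0.0286, two-sided, the smallest that 70 assignments of the libraries allow). Total UMIs per library lay between 25320800 and 37140950. Of 36193 distinct barcode sequences, 174 occurred in more than 1 library, 10 of them with a member in any library and 0 with members in more than 1.

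The member transcriptome was that of a basement-membrane-rich, lipid-handling preadipocyte, as far as its markers show. Levels are in CPM, the UMIs of a gene relative to all UMIs of the members of a library, and because the cells were chosen from these same measurements they are given as a description with no test. Col4a1, a core chain of basement membrane collagen IV, averaged 2637 CPM over the 8 libraries in members, 91.3 CPM in Dpp4+ Pi16+ cells and 1226 CPM in F3+ Gdf10+ cells. Smoc2, a calcium-binding matrix protein, averaged 1141, 116 and 537 CPM, and the secreted chemokine Cxcl14 averaged 1321, 4.37 and 1050 CPM in the same order. The fatty acid carrier Fabp4 averaged 1125, 179 and 405 CPM, with 452 CPM in members of Ad-Lib and 1798 CPM in members of TAN libraries. It was not confined to members, at 1673 CPM in droplets with a B cell, 838 in droplets with a T cell and 10250 in all other kept cells. The 4 markers given for these cells beside Icam1 and Col15a1 were thus all present, and 3 of them were higher in members than in both other types in every library, the exception being Cxcl14, which was higher in F3+ Gdf10+ cells in TAN 2, 4 and 6. Pparg averaged 35.2 CPM in members, 2.37 in Dpp4+ Pi16+ and 19.3 in F3+ Gdf10+ cells, and the lipase gene Lpl 1541, 118 and 1120 CPM. Both were higher in members than in either other type in all 8 libraries, as the plot of 6 genes by cell type shows for Pparg.

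**Figure D1:**
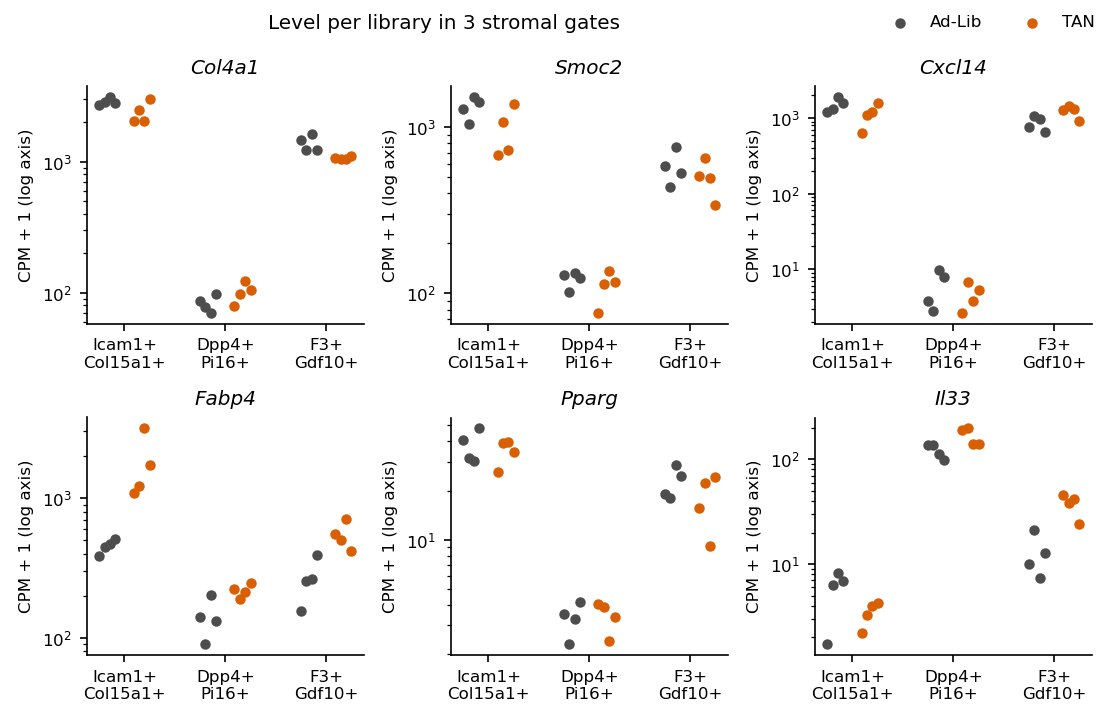
Levels of 6 genes (log axis, CPM + 1) in Icam1+ Col15a1+, Dpp4+ Pi16+ and F3+ Gdf10+ cells, 1 point per library, Ad-Lib in grey and TAN in orange. Col4a1 lies at 2038 to 3135 CPM in Icam1+ Col15a1+ cells of every library, and Il33 is highest in Dpp4+ Pi16+ cells.

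Of the 15 genes outside the gate that stood highest in members over the mean of both other types, 4 were collagen chains. These were Col4a1, Col4a2 (1157 CPM against 27.0 in Dpp4+ Pi16+ cells and 557 in F3+ Gdf10+ cells), Col5a3 (918 against 44.7 and 339) and Col6a3 (2388 against 259 and 817). The tight junction gene Cldn15 led the ranking at 122 CPM in members, 0.637 in Dpp4+ Pi16+ and 20.03 in F3+ Gdf10+ cells. Enpp2, which encodes the lysophosphatidic acid-producing enzyme autotaxin, stood at 365, 18.3 and 106 CPM. The fibulin gene Fbln7 and the hypoxia-responsive regulator Epas1 also belonged to the 15. Of the 10 genes lowest in members, Ptgs2, the inducible cyclooxygenase of prostaglandin synthesis, stood at 10.0 CPM in members, 833 in Dpp4+ Pi16+ and 111 in F3+ Gdf10+ cells. Wnt10b, an inhibitor of adipogenesis, averaged 0.114 CPM in members and 77.6 CPM in Dpp4+ Pi16+ cells, and Bmp7 had no UMI in members of any library. Sfrp4, Krtdap, Dmkn, Sbsn, Chst1, Sema3e and Ptgs2os completed that list, each at most 3.62 CPM in members on average.

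Members differed among themselves in the gate genes. Both Icam1 and Col15a1 were detected in 524 members (62.8%), Col15a1 alone in 284 (34%) and Icam1 alone in 27 (3.23%). Members with Col15a1 alone made up 24.4 to 34.02% with Ad-Lib and 34.1 to 57.6% with TAN feeding. The highest Ad-Lib library (Ad-Lib 5) and the lowest TAN library (TAN 8) were nearly equal, so the groups were not clearly apart. The gate gene Icam1, an adhesion molecule for leukocytes, stood at 235, 383, 239 and 339 CPM in Ad-Lib 1, 3, 5 and 7 and at 193, 195, 134 and 213 CPM in TAN 2, 4, 6 and 8. Col15a1, a collagen of the vascular basement membrane zone, stood at 475 to 557 CPM with Ad-Lib and 455 to 607 CPM with TAN feeding, which overlapped. Because both are gate genes, their level bears on which cells became members, and no test is given.

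The limit of 3 UMIs cut through a continuum. Among the 1723 stromal cells that met every other limit, 134 had 2 UMIs of the pair, just outside, and 109 had 3, just inside. The cells just outside held a median of 6467 UMIs, 1868 CPM of Col4a1, 812 CPM of Smoc2, 787 CPM of Cxcl14, 750 CPM of Fabp4 and 58.6 CPM of Cd36. The cells just inside held 9258 UMIs and 2155, 1077, 1137, 914 and 72.2 CPM of these genes. The 574 cells with no UMI of the pair were shallower, with a median of 1537.5 UMIs, and held 910 CPM of Col4a1, the lowest of all levels of the pair, but 3425 CPM of Fabp4 and 196 CPM of Cd36, the highest. Cells with 5 or more UMIs of the pair held 916 CPM of Fabp4 and 61.5 CPM of Cd36, so that these 2 genes did not climb with the pair as Col4a1 did.

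Members made up 2.70, 1.86, 2.55 and 4.52% of kept cells in Ad-Lib 1, 3, 5 and 7 and 1.83, 2.90, 0.584 and 2.17% in TAN 2, 4, 6 and 8. Ad-Lib 7 was highest and TAN 6 lowest, and the groups overlapped. The mean was 2.91% ± 1.13 with Ad-Lib and 1.87% ± 0.968 with TAN feeding (SD, n = 4 each), a difference of -1.04 percentage points that was within the spread between libraries (exact permutation p = 0.257, two-sided). Of stromal cells, members made up 8.53% ± 2.21 with Ad-Lib and 9.09% ± 4.52 with TAN feeding (SD, n = 4 each; exact permutation p = 0.800), with TAN 4 highest at 15.4% and TAN 6 lowest at 4.89%. When the gate was applied after each cell was thinned to 3000 UMIs, so that all cells that remained had the same depth, members averaged 4.71% of kept cells with Ad-Lib and 2.37% with TAN feeding (difference -2.34 points, exact permutation p = 0.0571, n = 4 each). With droplets that held B or T cell transcripts left out, the difference in the share of kept cells was -0.585 points (exact permutation p = 0.543, n = 4 each). Among stromal cells the difference of 0.556 points turned to -1.55 without TAN 4, to -0.182 with a stricter gate of at least 5 UMIs of the pair and to -1.81 with the gate after thinning (11.1% with Ad-Lib and 9.29% with TAN feeding). A change in the abundance of these cells was therefore not detectable at this number of libraries, as the plot of shares shows.

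**Figure D2:**
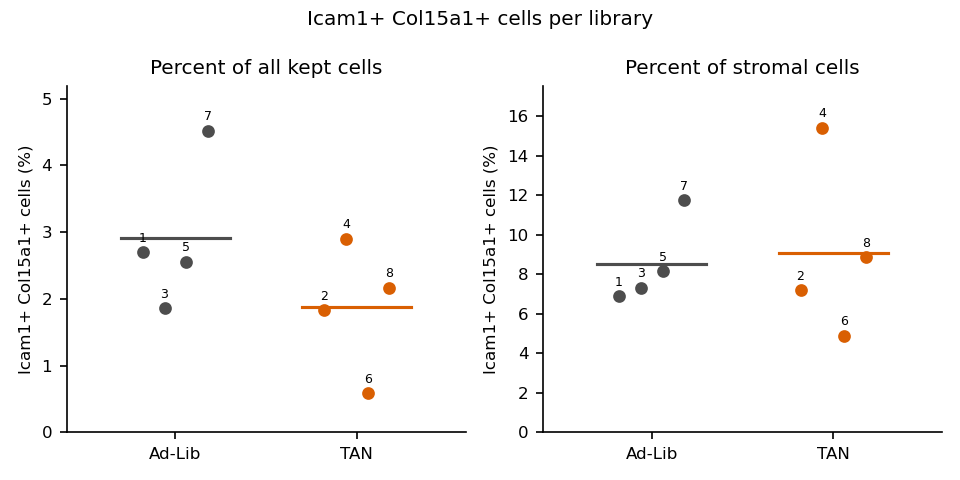
Share of Icam1+ Col15a1+ cells (percent) among all kept cells and among stromal cells, 1 point per library numbered by replicate, with lines at group means. The Ad-Lib and TAN points overlap in both panels, with TAN 6 lowest and Ad-Lib 7 or TAN 4 highest.

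To ask which transcripts of the members differed between the feeding groups, UMIs were summed per library and tested with edgeR's quasi-likelihood test, which left 8046 genes outside the gate. Calls required a change of at least 1.5-fold beside an adjusted p (Benjamini-Hochberg) under 0.05. By this rule 33 genes were higher in TAN (0.410% of genes tested) and 75 were lower (0.932%), while the median log2 change of all genes was 0.00. Without a minimum fold or adjustment, 953 genes had p under 0.05. The values of the 4 TAN libraries did not overlap those of the 4 Ad-Lib libraries in 515 genes (6.4% of genes tested). Summed UMIs do not tell a change in every member from a change in which cells entered the gate. The lists of genes counted in the following were chosen with earlier results of these data known, and are described by counts and medians. The plot of change against level places the called genes among all tested.

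**Figure D3:**
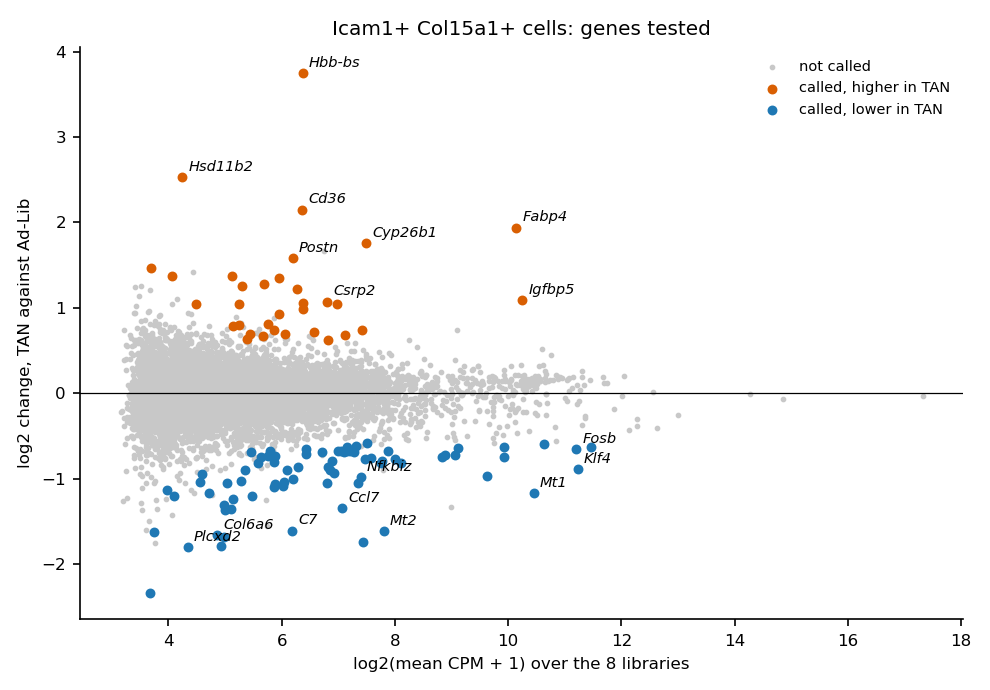
Log2 change (TAN against Ad-Lib) against the mean level, log2(mean CPM + 1), for the 8046 genes tested in Icam1+ Col15a1+ cells, 1 point per gene, with called genes in orange (33, higher in TAN) and blue (75, lower in TAN). Fabp4 and Igfbp5 stand out among abundant transcripts that rose, and Klf4, Fosb and Mt1 among those that fell.

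The lipid carrier Fabp4 and the fatty acid translocase Cd36 rose in members of TAN mice. Cd36 (ENSMUSG00000002944, GRCm38 chromosome 5, 17781690 to 17888801, minus strand) stood at 31.1, 27.5, 22.8 and 27.6 CPM in Ad-Lib 1, 3, 5 and 7 and at 120, 80.6, 218 and 121 CPM in TAN 2, 4, 6 and 8. Every TAN library lay above every Ad-Lib library, with TAN 6 highest, and the log2 change was 2.15 ± 0.22 (SE; adjusted p = 1.31e-05). Fabp4 (ENSMUSG00000062515, chromosome 3, 10204088 to 10208576, minus strand) stood at 384, 448, 467 and 507 CPM in the Ad-Lib libraries and at 1090, 1230, 3161 and 1713 CPM in the TAN libraries, in the same order as above and for all genes that follow. Again the groups did not overlap and TAN 6, the library with the fewest members, was highest (log2 change 1.94 ± 0.21, adjusted p = 1.55e-05). The study had named both genes in adipocyte progenitors from these libraries, so their rise here is not independent evidence.

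Both transcripts are abundant in mature adipocytes and vessels, and free RNA from such cells can enter any droplet, so the other cell types of the same libraries are given beside the members. Droplets with a B cell held a mean of 3.79 to 29.5 Fabp4 UMIs with Ad-Lib and 2.27 to 5.92 with TAN feeding, and droplets with a T cell 2.43 to 4.85 and 2.23 to 13.8. Members held 3.82 to 5.29 Fabp4 UMIs per cell in Ad-Lib libraries, below the B cell droplets of the same library except in Ad-Lib 3 (4.65 against 3.79), and 11.3 to 32.1 with TAN feeding, above the B cell droplets in all 4 but below the T cell droplets in TAN 2 (11.6 against 13.8). For Cd36, members held a mean of 0.258 to 0.309 UMIs per cell with Ad-Lib and 0.741 to 2.21 with TAN feeding, against 0.388 to 2.10 and 0.186 to 0.707 in B cell droplets. Cd36 in members was thus below the B cell droplets in all 4 Ad-Lib libraries and above them in all 4 TAN libraries. Ad-Lib 1 and Ad-Lib 7 had only 31 and 27 B cell droplets, and no doublet caller was run. Dpp4+ Pi16+ cells held fewer UMIs than members in all 8 libraries, with 0.758 to 1.88 of Fabp4 with Ad-Lib and 1.43 to 2.02 with TAN feeding, and 0.0466 to 0.0957 and 0.0463 to 0.101 of Cd36. The part of free RNA in the member values was not tested.

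The share of members with a UMI was compared next. After thinning to 3000 UMIs, which left out 18 members, Fabp4 was detected in 42.6, 49.7, 53.7 and 56.0% of members in Ad-Lib 1, 3, 5 and 7 and in 71.2, 70.4, 92.5 and 84.7% in TAN 2, 4, 6 and 8. The groups did not overlap, and the difference was 29.2 percentage points (exact permutation p = 0.0286, adjusted over 3 genes 0.0429, n = 4 each). The same thinning gave 13.3 to 39.0% in B cell droplets (median 3525 UMIs before thinning) and 15.8 to 33.1% in T cell droplets (median 5507 UMIs), against a median of 10350 UMIs in members. Cd36 was detected in 5.53 to 7.13% of members with Ad-Lib and 14.9 to 35.5% with TAN feeding, a difference of 17.4 points (exact permutation p = 0.0286, adjusted 0.0429, n = 4 each). In the Ad-Lib libraries the same thinning found Cd36 in 8.25 to 17.1% of B cell droplets, 4.35 to 9.26% of T cell droplets, 1.31 to 2.55% of Dpp4+ Pi16+ cells and 0.798 to 2.98% of F3+ Gdf10+ cells. The Cd36 share of Ad-Lib members thus lay below that of B cell droplets and above that of both other stromal types in all 4 libraries, and the same limit applies. Without thinning, Fabp4 was present in 70.9% of members with Ad-Lib and 89.3% with TAN feeding on average, and Cd36 in 15.7% and 41.2%. Within libraries, Fabp4 and Cd36 correlated across members with a Spearman coefficient of 0.112 to 0.220 in the Ad-Lib and 0.462 to 0.550 in the TAN libraries, as a description over 33 to 168 cells that share depth and free RNA.

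Other genes of fatty acid handling were not called. Of 20 tested genes of fatty acid uptake, binding and storage, only Cd36 and Fabp4 were called, both higher, and the list's median log2 change was 0.02. The shares called over all genes tested were 0.410% higher and 0.932% lower. Lpl, which releases fatty acids from lipoproteins, stood at 1092, 1160, 1461 and 1296 CPM with Ad-Lib and 1969, 1485, 2247 and 1622 CPM with TAN feeding, without overlap, but its log2 change of 0.52 ± 0.13 (adjusted p = 0.0354) fell short of 1.5-fold. Of 22 genes of fatty acid and sterol synthesis, 1 rose, Fdps of the mevalonate pathway, and the median was 0.20. Fdps was not called by DESeq2 and lost its call in 6 of 8 fits that left out 1 library (adjusted p 0.0726 to 0.183, without Ad-Lib 1, 5 or 7 or TAN 2, 4 or 6). Pparg, at 29.2 to 47.0 CPM with Ad-Lib and 25.01 to 38.8 CPM with TAN feeding, was not called (log2 change -0.19, adjusted p = 0.771). Of 17 adipogenic regulators, 2 fell, Klf4 and Klf9, and none was called higher (median -0.19). Transcripts of 12 mature adipocyte markers summed to 75.9 to 108 CPM with Ad-Lib and 66.5 to 142 CPM with TAN feeding, against an average of 755 CPM in the other kept cells. The lipid droplet gene Plin4, the adipocyte marker with the smallest p, had a log2 change of 0.21 (adjusted p = 0.724). When members with any UMI of the adipocyte markers Adipoq, Cidec, Plin1 or Car3 were left out, Cd36 and Fabp4 were again called.

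**Figure D4:**
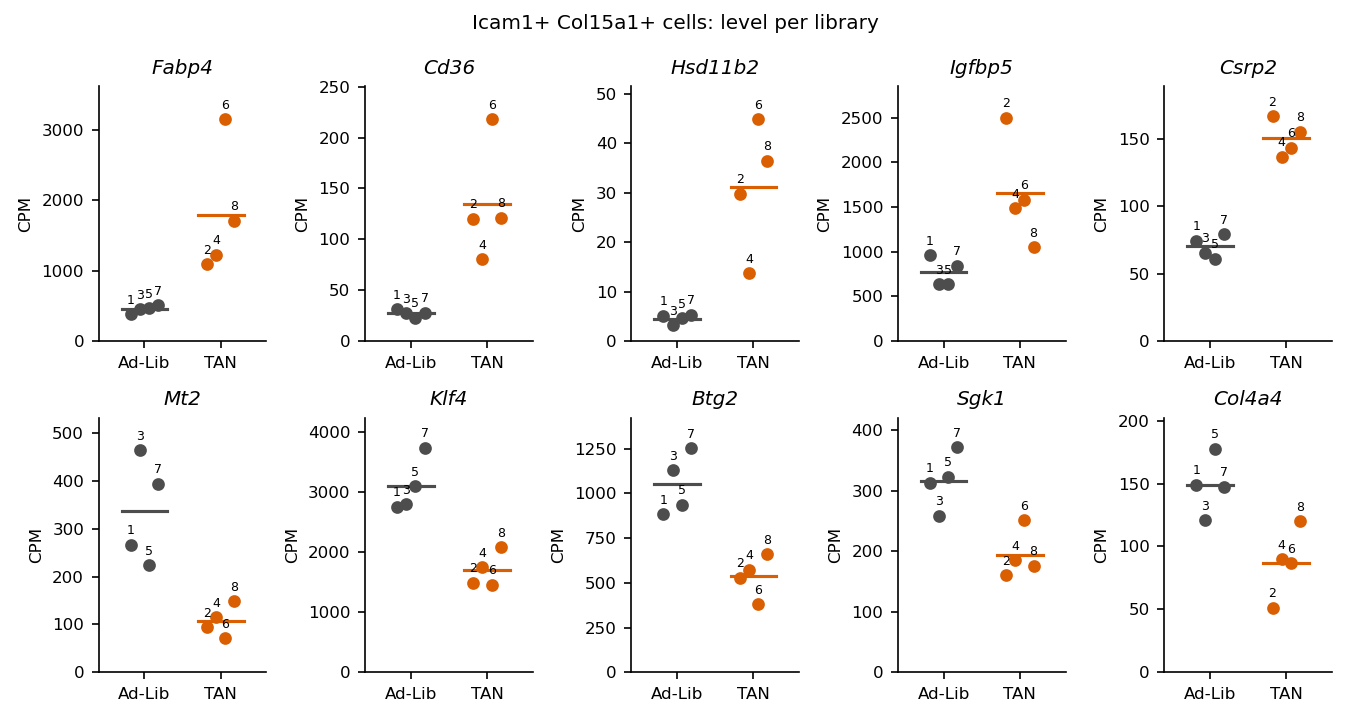
Level (CPM) of 10 genes in Icam1+ Col15a1+ cells, 1 point per library numbered by replicate, with lines at group means. In all 10 panels the 4 TAN points lie on one side of the 4 Ad-Lib points, above for the 5 genes of the top row and below for the 5 of the bottom row.

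Among the other genes that rose, Hsd11b2 had the largest change of those with no overlap. Hsd11b2 (chromosome 8, 105518755 to 105523988, plus strand), which inactivates glucocorticoids in cells, stood at 5.06, 3.18, 4.56 and 5.29 CPM with Ad-Lib and at 29.8, 13.7, 44.8 and 36.4 CPM with TAN feeding. It rose by 2.53 ± 0.36 on the log2 scale (adjusted p = 0.00034), from a level close to nothing. Igfbp5 (chromosome 1, 72857932 to 72874884, minus strand), a secreted binding protein of insulin-like growth factors, stood at 960, 636, 638 and 842 CPM and at 2504, 1488, 1581 and 1049 CPM, with TAN 2 highest. Its groups did not overlap (log2 change 1.09 ± 0.20, adjusted p = 0.00393), though a test with DESeq2 did not call it. The LIM-domain gene Csrp2 rose evenly, from 70.1 ± 8.28 to 151 ± 13.2 CPM (SD, n = 4 each; log2 change 1.07, adjusted p = 0.000138). The secreted growth factor Mdk, the secreted glycoprotein Olfm2, the immunoglobulin-receptor-like Cd300lg and the receptor Notch3 rose by 1.22, 0.99, 1.28 and 1.38. With the gate after thinning, Mdk, Olfm2 and Notch3 were not called (adjusted p 0.0505 to 0.0991). Npr1, the receptor of natriuretic peptides, which favour lipolysis in fat, rose from 24.5 ± 4.24 to 48.9 ± 4.85 CPM (log2 change 1.05, adjusted p = 0.00212). Its call was lost with the gate after thinning (log2 change 0.72, adjusted p = 0.420). Mid1 rose by 1.25, but the gene crosses the boundary of the pseudoautosomal region, where reads can be misassigned, and its counts are uncertain.

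Retinoid, IGF and BMP signals are known to steer preadipocytes, and 5 of 21 tested genes of these pathways were called, 3 higher and 2 lower. Among all genes tested, 0.410% were called higher and 0.932% lower. Cyp26b1, which degrades retinoic acid, rose by 1.76 ± 0.33 (adjusted p = 0.00426), but TAN 6 at 50.8 CPM lay within the Ad-Lib range of 39.8 to 122 CPM, the other TAN libraries stood at 239 to 435 CPM, and DESeq2 did not call it. Bmp4, a ligand that promotes commitment to the adipocyte lineage, fell from 79.0 ± 25.7 to 35.2 ± 17.97 CPM (log2 change -1.10, adjusted p = 0.0111), and lost its call without Ad-Lib 5 or TAN 4 (adjusted p 0.0502 and 0.0605). Aldh1a1, which makes retinoic acid, fell by 0.67 on the log2 scale (adjusted p = 0.0239), a call kept in 3 of 8 fits, those without Ad-Lib 1, Ad-Lib 3 or TAN 8 (log2 changes of -0.56 to -0.72 in the others). The list's median was -0.01. Of 15 genes of WNT, Notch and Hedgehog signalling, 1 rose, Notch3.

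Of 19 immediate early genes, transcription factors and regulators induced within minutes by stimuli, tissue digestion included, 9 fell in TAN members. None was called higher, 17 had p under 0.05 and a negative change, and the list's median log2 change was -0.64, against 0.00 over all genes. In 13 of the 19 the groups did not overlap. Over all 8046 genes tested, 0.932% were called lower, 953 had p under 0.05 in either direction, and 6.4% did not overlap. Klf4, a regulator that also takes part in early adipogenesis, stood at 2754, 2803, 3099 and 3742 CPM in Ad-Lib 1, 3, 5 and 7 and at 1495, 1755, 1458 and 2081 CPM in TAN 2, 4, 6 and 8. The highest TAN value lay well below the lowest Ad-Lib value (log2 change -0.89 ± 0.12, adjusted p = 0.000335). Btg2, an antiproliferative gene, stood at 885, 1131, 937 and 1251 CPM and at 530, 573, 382 and 661 CPM, again without overlap (log2 change -0.97 ± 0.14, adjusted p = 0.000444). Ier3 and the AP-1 subunit gene Fosb fell by 1.05 and 0.65 on the log2 scale, and Egr1, Ier2, Dusp1, Nr4a1 and Atf3 were also called lower, of which Nr4a1 and Atf3 kept the call in 2 of 8 fits that left out 1 library (Nr4a1 without Ad-Lib 3 or 5, Atf3 without Ad-Lib 5 or TAN 2). Dusp1 lost it without Ad-Lib 7, TAN 2 or TAN 6 (adjusted p 0.0547 to 0.107), and Ier2 without Ad-Lib 5, TAN 2 or TAN 4 and Egr1 without TAN 6, where the changes of -0.55 to -0.57 missed 1.5-fold. Fos, at 4943 to 5575 CPM with Ad-Lib and 2988 to 4219 CPM with TAN feeding, did not pass the test (log2 change -0.43, adjusted p = 0.106), nor did Jun (-0.39, adjusted p = 0.121). Outside the list, Nfkbiz, a nuclear regulator of NF-kB, fell by 0.98, the cyclin gene Ccnl1 by 0.80 and Ifrd1 by 0.90. Of 12 heat shock genes, which digestion also induces, 1 fell, Dnajb1, and the median was 0.17.

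Of 21 tested genes that respond to glucocorticoids or to the insulin-regulated FOXO factors, 9 fell and none was called higher. The median log2 change was -0.55, 15 genes had p under 0.05 and a negative change, and in 10 of the 21 the groups did not overlap. Among all 8046 genes tested, 0.932% were called lower, 953 had p under 0.05 in either direction, and 6.4% did not overlap. Mt2 (chromosome 8, 94172664 to 94173568, plus strand), a metallothionein that binds zinc and copper, stood at 266, 464, 223 and 394 CPM with Ad-Lib and at 94.1, 115, 71.7 and 149 CPM with TAN feeding. All TAN values were below all Ad-Lib values, and the log2 change was -1.62 ± 0.20 (adjusted p = 0.000138). Its neighbour Mt1 (94179082 to 94180327) stood at 1538 to 2339 CPM with Ad-Lib and 627 to 1404 CPM with TAN feeding (log2 change -1.17 ± 0.20, adjusted p = 0.00165), though DESeq2 did not call it. Sgk1, a kinase induced by glucocorticoids, stood at 313, 258, 323 and 372 CPM and at 161, 185, 251 and 176 CPM, with TAN 6 just under the lowest Ad-Lib library (log2 change -0.78 ± 0.13, adjusted p = 0.0014). The gate after thinning did not call it (log2 change -0.50, adjusted p = 0.213). Per1, a clock gene that glucocorticoids also induce, fell by 1.17 and Errfi1, an inhibitor of the EGF receptor, by 0.77 on the log2 scale, while Fkbp5, Glul and Zbtb16 were called lower too. Without TAN 4, Fkbp5, Glul and Zbtb16 lost the call (adjusted p 0.119, 0.0796 and 0.0955), and Zbtb16 also without Ad-Lib 5 or TAN 8. Klf9 fell from 586 ± 154 to 360 ± 11 CPM (log2 change -0.72, adjusted p = 0.00393), and without Ad-Lib 5, its highest library, the change of -0.55 no longer reached 1.5-fold. Cdkn1a, Sesn1 and Sesn3, which FOXO and p53 factors induce, were not called. Of 14 clock genes Per1 alone was called. The plot of both lists shows the changes gene by gene.

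**Figure D5:**
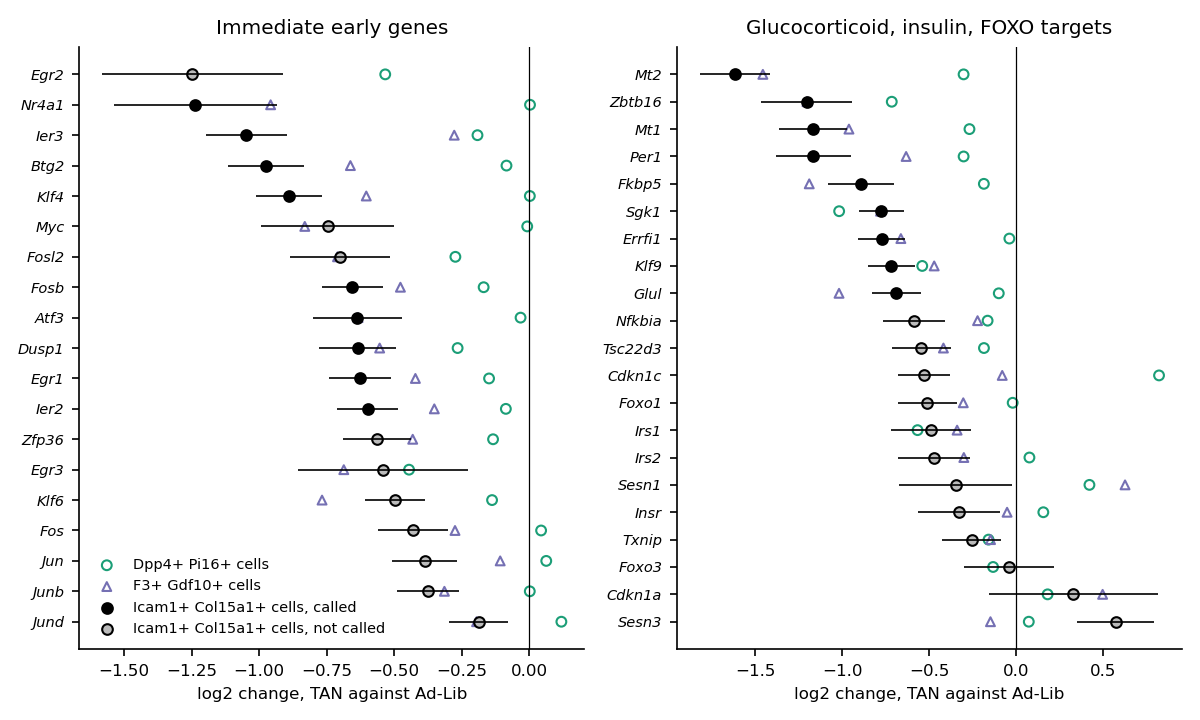
Log2 change (TAN against Ad-Lib) of the tested immediate early genes (left, 19) and of glucocorticoid, insulin and FOXO targets (right, 21) in Icam1+ Col15a1+ cells (filled, black when called, with bars for the SE), Dpp4+ Pi16+ cells (open circles) and F3+ Gdf10+ cells (triangles). Most black points lie left of the open circles, and a gene without a symbol for a cell type was not tested there.

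The windows before the start sites of 4 of these genes are shown because they hold the motifs through which zinc, cyclic AMP and glucocorticoids are known to act on transcription. They are the 250 bases up to the start of the RefSeq transcript (GRCm38.p6), with every match to the 3 motifs in capitals, read on both strands. Mt2 (chr8:94172368-94172617, plus strand) held 3 metal response element cores (TGCACNC or TGCGCNC), Mt1 (chr8:94178839-94179088, plus) held 1 and a glucocorticoid response element (GNACA and TGTNC with 3 bases between them), Btg2 (chr1:134079156-134079405, minus) held 1 and a cyclic AMP response element (TGACGTCA), and 1 of 6 Sgk1 windows (chr10:21993640-21993889, plus) held a glucocorticoid response element.
Mt2: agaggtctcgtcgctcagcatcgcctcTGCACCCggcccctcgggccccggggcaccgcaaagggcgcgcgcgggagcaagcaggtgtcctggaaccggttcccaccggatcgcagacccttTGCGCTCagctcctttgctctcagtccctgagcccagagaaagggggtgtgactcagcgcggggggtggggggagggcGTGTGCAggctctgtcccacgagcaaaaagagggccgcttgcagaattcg
Mt1: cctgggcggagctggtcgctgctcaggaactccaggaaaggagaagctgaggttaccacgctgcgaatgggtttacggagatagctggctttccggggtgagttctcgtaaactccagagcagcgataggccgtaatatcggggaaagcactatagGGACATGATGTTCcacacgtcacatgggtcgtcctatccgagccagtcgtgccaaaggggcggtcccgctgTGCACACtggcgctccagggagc
Btg2: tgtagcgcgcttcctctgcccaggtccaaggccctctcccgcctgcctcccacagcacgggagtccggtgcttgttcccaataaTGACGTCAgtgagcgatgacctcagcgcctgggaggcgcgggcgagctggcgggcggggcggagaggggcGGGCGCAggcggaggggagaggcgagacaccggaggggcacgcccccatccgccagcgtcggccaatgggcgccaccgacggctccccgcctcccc
Sgk1: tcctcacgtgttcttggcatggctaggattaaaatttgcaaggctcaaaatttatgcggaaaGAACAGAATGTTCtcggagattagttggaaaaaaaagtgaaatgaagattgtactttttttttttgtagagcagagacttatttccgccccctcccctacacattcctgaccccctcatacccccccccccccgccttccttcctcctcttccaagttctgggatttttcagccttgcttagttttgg

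The 3 cores of Mt2 began 223, 128 and 50 bases before the start, that of Mt1 at 23 and that of Btg2 at 96. The glucocorticoid element of Mt1 began at 94 and that of Sgk1 at 188, and the cyclic AMP element of Btg2 at 166. The metal core is short and was present in 21.4% of the 32851 windows of all genes, in 19 of the 61 genes lower in TAN members that had a window, and in 35.5% of tested genes with one. The cyclic AMP element occurred in 1.55% of all windows, in 3.10% of tested genes and in 6 of the 61 lower genes (Btg2, Ccnl1, Dusp1, Errfi1, Maff and Ppp1r15a). The glucocorticoid element occurred in 0.387% of all windows, in 0.357% of tested genes and in 4 of the 61 (Map3k6, Mt1, Serpina3c and Sgk1). Of the 24 higher genes with a window, 6, 1 and 0 held the 3 motifs. A match to these letters is a description and not a bound site.

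Most basement membrane and other matrix genes were not called in the members, and the calls were among minor chains, laminin and fibre genes. Of 20 tested basement membrane genes 4 fell and none was called higher, with a median log2 change of -0.19. Over all genes tested, 0.932% were called lower and 0.410% higher. Col4a4 (chromosome 1, 82448423 to 82586849, minus strand) stood at 149, 121, 178 and 147 CPM with Ad-Lib and at 51.2, 89.7, 86.6 and 120 CPM with TAN feeding. TAN 8 came within reach of Ad-Lib 3, and the log2 change was -0.79 ± 0.17 (adjusted p = 0.011). Col4a3, which lies head to head with Col4a4 (82586921 to 82722059, plus strand), fell from 60.8 ± 8.94 to 33.4 ± 10.3 CPM (log2 change -0.82, adjusted p = 0.029), and its call was lost without Ad-Lib 1, 3 or 5 or TAN 2 (adjusted p 0.0639 to 0.122). Col4a5, the third chain of that network, fell from 53.0 ± 7.06 to 32.7 ± 5.40 CPM (adjusted p = 0.0457), a call kept only without Ad-Lib 7 (adjusted p 0.0627 to 0.165 in the other 7 fits) and not made by DESeq2. The laminin chain gene Lamb2 fell from 289 ± 16.5 to 182 ± 36.5 CPM (log2 change -0.67, adjusted p = 0.00402), and without TAN 2 by 0.58, short of 1.5-fold. The abundant chains Col4a1 and Col4a2 were not called, at log2 changes of -0.29 ± 0.12 (adjusted p = 0.342) and -0.18 (adjusted p = 0.605). Of 18 other collagen genes 1 fell, Col6a6, from 44.3 ± 11.2 to 11.9 ± 11.4 CPM (log2 change -1.66, adjusted p = 0.00306), with no UMI in TAN 6, and the median was -0.14. Of 14 genes of microfibrils and elastic fibres 2 rose by edgeR, Postn and Fbln5, and DESeq2 called neither (adjusted p 0.470 and 0.103). Postn, which encodes periostin, had overlapping groups (8.20 to 75.2 against 53.8 to 209 CPM) and lost its call without Ad-Lib 1 or 5 or TAN 2 or 8 (adjusted p 0.0556 to 0.156), and Fbln5 lost it in 6 of 8 such fits (all but those without Ad-Lib 1 or TAN 6, adjusted p 0.0784 to 0.180). None of 18 genes of matrix turnover was called by edgeR or DESeq2, while 3 had p under 0.05 and a negative and 4 a positive change. Adamts5, an aggrecan- and versican-cleaving protease, was at 613 ± 23.1 and 436 ± 57.2 CPM without overlap, with a log2 change of -0.51 (adjusted p = 0.0117) that missed 1.5-fold.

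The other 2 markers of these cells did not pass the test. Smoc2 stood at 1281, 1047, 1517 and 1419 CPM with Ad-Lib and 679, 1075, 729 and 1377 CPM with TAN feeding (log2 change -0.47 ± 0.16, adjusted p = 0.179). Cxcl14 stood at 1209 to 1915 CPM and 641 to 1591 CPM (log2 change -0.45 ± 0.17, adjusted p = 0.247). Both overlapped between the groups.

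Chemokine genes Cxcl1 and Ccl7 and the complement gene C7 fell in TAN members. Of 17 chemokine and cytokine genes 2 fell and none was called higher, with a median log2 change of -0.45. The share called lower over all genes tested was 0.932%. The neutrophil chemoattractant Cxcl1 stood at 533, 733, 443 and 574 CPM with Ad-Lib and at 320, 429, 308 and 314 CPM with TAN feeding (log2 change -0.75 ± 0.15, adjusted p = 0.00916). TAN 4 came close to Ad-Lib 5, and without Ad-Lib 3, the highest library, the change was -0.58 and no longer 1.5-fold. The monocyte chemoattractant Ccl7 fell from 193 ± 104 to 72.6 ± 28.1 CPM (log2 change -1.35, adjusted p = 0.0146), and its call was lost without TAN 8 (adjusted p = 0.0555), with DESeq2 (adjusted p = 0.171), with a gate on Col15a1 alone (adjusted p = 0.103) and with the gate after thinning (log2 change -0.76, adjusted p = 0.578). C7, a terminal complement component, stood at 120, 76.2, 66.5 and 159 CPM and at 41.7, 33.5, 44.8 and 28.9 CPM, and fell by 1.61 ± 0.24 on the log2 scale (adjusted p = 0.000533), the only call among 11 complement genes. Il33, the alarmin that activates type 2 innate lymphoid cells, was too rare in members to be tested, at 0.723 to 7.29 CPM with Ad-Lib and 1.19 to 3.22 CPM with TAN feeding, against 143 CPM on average in Dpp4+ Pi16+ cells. After thinning to 3000 UMIs, Il33 was found in 1.36% of members with Ad-Lib and 0.662% with TAN feeding (difference -0.693 points, exact permutation p = 0.200, n = 4 each), and in at most 0.133% of B or T cell droplets. None of 22 interferon-induced genes (median 0.12) and none of 16 genes of glycolysis (median 0.12) was called by edgeR or DESeq2, with 8 and 2 higher at p under 0.05. Of 13 adipokines and secreted regulators 1 fell, Pla1a, a call that was lost without TAN 2 because the change of -0.58 no longer reached 1.5-fold.

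To ask whether these changes differed from those of the other progenitors of the same libraries, the difference of the TAN changes was tested with the library as a block. Against Dpp4+ Pi16+ cells, 70 of 9799 genes (0.714%) differed, 23 with a higher and 47 with a lower change in members. Klf4, at 2415 CPM with Ad-Lib and 2413 CPM with TAN feeding in Dpp4+ Pi16+ cells, had a lower change in members (difference of log2 changes -0.94 ± 0.11). Btg2 and Klf2 differed by -0.95 and -0.93, Mt1 and Mt2 by -0.97 and -1.26, Nfkbiz by -1.06 and Ccl7 by -1.80, and all 7 remained called in the 8 fits that left out 1 library. In Dpp4+ Pi16+ cells the log2 changes of these genes were 0.00 for Klf4, -0.08 for Btg2, 0.16 for Klf2, -0.27 for Mt1, -0.30 for Mt2, 0.02 for Nfkbiz and 0.37 for Ccl7. Of the immediate early genes 5 differed, with a median change of -0.09 in Dpp4+ Pi16+ cells, and of the glucocorticoid, insulin and FOXO targets 6, with a median of -0.16. Sgk1 did not differ (0.20): its change was -1.02 in Dpp4+ Pi16+ cells.

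Cd36 and Fabp4 rose more in members than in Dpp4+ Pi16+ cells, by 1.84 ± 0.25 and 1.13 ± 0.23 on the log2 scale. Cd36 stood at 5.46 to 10.3 CPM with Ad-Lib and 6.13 to 14.1 CPM with TAN feeding in Dpp4+ Pi16+ cells, and Fabp4 at 88.9 to 202 and 189 to 244 CPM. The difference of Fabp4 lost its call without Ad-Lib 1 or Ad-Lib 5. In F3+ Gdf10+ cells, Cd36 stood at 2.85 to 10.7 CPM with Ad-Lib and 13.4 to 23.4 CPM with TAN feeding, without overlap. Its change in these cells alone was not tested. Neither the difference of Cd36 between members and F3+ Gdf10+ cells (0.98 ± 0.45, adjusted p = 0.804) nor that of Fabp4 (0.81 ± 0.20, adjusted p = 0.170) was called. The adhesion gene Cdh13 and the interferon-induced Ifit3 differed by 1.24 and 1.32, although neither was called in members alone (log2 changes 0.59 and 0.71) and both had negative changes in Dpp4+ Pi16+ cells of TAN mice (-0.64 and -0.62). Ccn2 and Rsad2 differed by 4.86 and 4.09, but their member values were highest in TAN 8, at 26.8 and 55.7 CPM against at most 6.85 CPM in every other library, and without it the difference of Rsad2 was not called. Ccn2 did not pass the filter on low counts without Ad-Lib 7 and was called in the other 7 fits that left out 1 library. Against F3+ Gdf10+ cells, 3 of 8185 genes (0.0367%) differed, Npr1 (1.41), Dio3os (-2.84) and Gpc3 (-1.37), while 497 had p under 0.05. The call of Npr1 was lost without Ad-Lib 1, Ad-Lib 7 or TAN 4, that of Dio3os without TAN 8, and that of Gpc3 without Ad-Lib 3 or 5 or TAN 4 or 6. In F3+ Gdf10+ cells the log2 changes were -0.60 for Klf4, -0.66 for Btg2, -1.46 for Mt2, -0.78 for Sgk1 and 0.98 for Fabp4, and the medians -0.52 for immediate early genes and -0.38 for the glucocorticoid list. With 32 to 114 F3+ Gdf10+ cells per library, a p that misses the threshold does not show that the 2 types changed alike.

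Summed markers of other cell types were lower in members than in the other kept cells by different margins, and those of Schwann cells were at a similar level. Markers of mural cells summed to 52.9 to 93.4 CPM with Ad-Lib and 108 to 177 CPM with TAN feeding without overlap, and Notch3, which rose, is 1 of its 8 genes. Endothelial markers summed to 4.23 to 31.7 and 8.96 to 48.2 CPM, T cell markers to at most 3.80 CPM with Cd3d and Trac at 0, and mesothelial markers to at most 2.28 CPM with Msln, Upk1b and Krt8 at 0. Macrophage markers summed to 40.2 to 142 and 20.5 to 98.6 CPM, and the macrophage gene Lyz2, at 8.47 to 25.3 and 2.28 to 12.9 CPM, was called lower in members (log2 change -1.62, adjusted p = 0.0386) with overlapping groups, in only the fits with all libraries, without Ad-Lib 3 and without TAN 8 (adjusted p 0.0561 to 0.252 in the others). B cell markers summed to 449 to 596 and 469 to 526 CPM, against 683 CPM in the other kept cells, almost all from Ebf1, a regulator that preadipocytes also express, with Cd79b and Ms4a1 at 0. Schwann cell markers summed to 36.2 to 96.9 and 45.0 to 62.7 CPM, against an average of 70.9 CPM in the other kept cells, and cycling genes to 10.0 to 19.1 and 4.29 to 17.9 CPM. Haemoglobin transcripts summed to 8.47 to 34.1 CPM with Ad-Lib and 29.9 to 1141 CPM with TAN feeding, TAN 4 being the highest, and the call of Hbb-bs (log2 change 3.75, adjusted p = 0.00855) was lost without TAN 4 (1.03, adjusted p = 0.239). The part of these transcripts in the changes was not tested.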

How the data were processed

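Single cells of the inguinal stromal vascular fraction were captured with the Chromium Single Cell 3' v3 kit. The authors deposited raw UMI counts per gene and barcode, 1 table per library, with no normalization. The submitters' processing notes name Cell Ranger 3.0.2 and Seurat on mm10 (GRCm38), whereas the file headers name Cell Ranger 6.0.1, and whether the 2 versions refer to the same tables is not known. Groups were taken from the labels. The members, gene lists and alternatives were chosen with earlier results of these data known.

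Raw counts were summed per library over the members and tested with edgeR 4.0.16 (quasi-likelihood test, TMM scaling, filterByExpr) in R 4.3.3. P-values were adjusted by Benjamini-Hochberg over all genes of a fit (8054 in members), the gate genes in it (8 in members) were then left out, and adjusted p-values in the text are from this test. Differences between cell types were tested as an interaction with the library as block. The SE of a log2 change or difference was derived as its size divided by the square root of the test's F statistic. Shares were compared with exact permutation tests (scipy 1.17.1), two-sided, over all 70 assignments of the libraries. DESeq2 1.42.0 was an alternative. Dpp4+ Pi16+ cells (3141) and F3+ Gdf10+ cells (590) were gated by the same limits with the pairs exchanged. Lymphocyte droplets were those with B cell (2803) or T cell (4148) transcripts. For the thinned shares of cells with a UMI, the chance that at least 1 UMI remains among 3000 was calculated per cell. For the gate after thinning, 3000 UMIs were drawn at random from each cell with a fixed seed. All lower and upper limits on the gate genes were then applied to the draw, so its members differ from those of the main gate. No doublet caller was run, and an alternative left out barcodes over 15000 UMIs. The scripts were checked on simulated counts.

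Genes named in the text are the 10 called genes of each direction with the smallest adjusted p and no overlap between groups, up to 4 called genes of each list or otherwise its gene with the smallest p, the markers given for these cells with Cd36 and Il33, the 5 called genes of each direction with the smallest adjusted p in the interactions, and the 15 highest and 10 lowest genes against the other 2 types. Other genes were named after their values were seen. Results of some genes that meet these rules are not reported here. Alternatives changed the gate, the quality limits, thinning, scaling, filter, tool and the library left out. Coordinates are from GENCODE M21 (GRCm38), which matched 32158 of 32285 gene identifiers.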

Additional observations from a re-analysis of the deposited data

Results flagged for a closer look

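In 4 named genes the value of 1 library in the members stood apart from the other 3 of its group. Nfkbiz was lowest in TAN 2 at 90.5 CPM, against 120 to 125 CPM in the other TAN libraries. Npr1 was lowest in Ad-Lib 7 at 18.2 CPM, against 26.04 to 27.3 CPM. Hbb-bs, a haemoglobin chain of red blood cells, was highest in TAN 4 at 529 CPM, against 17.9 to 36.4 CPM. Cxcl1 was highest in TAN 4 at 429 CPM, against 308 to 320 CPM. By chance about 1 in 20 groups stands apart by this measure, and 136 groups were looked at.

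The change with TAN feeding differed between members and the other progenitors in the test of the difference itself, for 70 genes against Dpp4+ Pi16+ cells and for 3 genes against F3+ Gdf10+ cells.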

How the results depend on the processing

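No paired analysis was possible because the 2 groups share no replicate numbers (1, 3, 5 and 7 in Ad-Lib, 2, 4, 6 and 8 in TAN). A fit with a term for libraries 1 to 4 against 5 to 8, a split that the labels do not name as a batch, called 32 genes higher and 80 lower. The difference in the share of stromal cells was 0.556 points and ranged from -1.55 (without TAN 4) to 1.95 points when 1 library was left out, was -0.182 points with the stricter gate (at least 5 UMIs of Icam1 and Col15a1 and none of the other pairs) and -1.81 points with the gate after thinning. The difference in the share of kept cells ranged from -1.39 to -0.501 points without 1 library and was -0.585 points without lymphocyte droplets. The Fabp4 difference ranged from 24.96 to 32.3 points and the Cd36 difference from 13.4 to 20.3 points (exact permutation p = 0.0571, the smallest that 3 against 4 libraries allow), and the Il33 difference from -1.09 to -0.509 points.

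Leaving out 1 library gave 21 (without Ad-Lib 5) to 44 genes higher and 49 (without TAN 4) to 81 genes lower in members. It gave 39 (without TAN 4) to 67 genes that differed from Dpp4+ Pi16+ cells (46 without Ad-Lib 3 and 45 without TAN 2) and 2 (without TAN 4) to 14 (without TAN 8) that differed from F3+ Gdf10+ cells (5 to 7 without Ad-Lib 3, 5 or 7 or TAN 2). The stricter gate gave 18 higher, 36 lower, 42 against Dpp4+ Pi16+ and 0 against F3+ Gdf10+ cells by edgeR (228 at an unadjusted p under 0.05). It left 250 members and 4201 tested genes. The gate after thinning gave 13 higher and 26 lower, from 886 members and 4459 tested genes. Without a filter on low counts there were 90, 172, 155 and 49 genes. The DESeq2 test called 20 genes higher, with 1407 adjusted p-values not given. Against F3+ Gdf10+ cells, 6 genes differed without members or comparison cells that held adipocyte UMIs and 12 with a gate on Col15a1 alone, which was chosen after seeing the data. The cause of these differences was not tested.

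Of 108 genes called, 45 were called in all 8 fits that left out 1 library, as were 30 of the 44 named genes that were called. Over all alternatives, the named genes kept direction and side of the threshold in 931 fits, lost the call in 97, gained it in 9 and turned direction in 2, Plin4 without TAN 2 (-0.070, the lowest of a range up to 0.38 without TAN 8) and Ebf1 with the gate after thinning (0.052). The stricter gate ended 17 calls and the gate after thinning 20, those of Ier3, Ifrd1, Rnd3, Mdk, Olfm2, Sgk1, Notch3, Npr1, Errfi1, Mid1, Col6a6, Lamb2, Pla1a, Col4a4, Bmp4, Ccl7, Col4a3, Fbln5, Col4a5 and Fdps. The DESeq2 test ended 8, those of Mt1, Igfbp5, Cyp26b1, Ccl7, Postn, Fbln5, Col4a5 and Fdps, and gave no adjusted p-value for Hbb-bs and Lyz2. Of the 108 genes, 91 were also called with the Col15a1 gate and 83 without members that held adipocyte UMIs. Members of TAN 6 (33 cells, 334687 UMIs) give the least precise values.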

Other observations

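The following genes were chosen after their values were seen. Besides Npr1, which makes cyclic GMP when natriuretic peptides bind, a subunit gene of the nitric oxide-sensitive guanylate cyclase rose in TAN members. Gucy1a1 stood at 48.5, 25.4, 37.4 and 52.9 CPM in Ad-Lib 1, 3, 5 and 7 and at 82.2, 83.7, 80.7 and 78.2 CPM in TAN 2, 4, 6 and 8, without overlap, with a log2 change of 0.92 ± 0.17 (edgeR's quasi-likelihood test, Benjamini-Hochberg adjusted p = 0.00395), and it was called in all 8 fits that left out 1 library. Its partner Gucy1b1 was called too (log2 change 0.80 ± 0.21, adjusted p = 0.0489), but TAN 6 at 23.9 CPM lay below every Ad-Lib library and the call was kept in 2 of 8 such fits, those without TAN 6 or TAN 8 (adjusted p 0.0765 to 0.340 in the others).

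Of the genes that fell, the antisense transcript Dio3os stood at 17.4, 12.7, 29.2 and 18.8 CPM in Ad-Lib and at 1.19, 4.56, 5.98 and 4.29 CPM in TAN libraries (log2 change -2.34 ± 0.38, adjusted p = 0.00102). Reads of an antisense gene and its partner can be told apart only where counting uses the strand. Osmr, the receptor of oncostatin M, stood at 76.4 to 84.7 CPM in Ad-Lib and 29.9 to 51.5 CPM in TAN libraries (log2 change -1.07 ± 0.16, adjusted p = 0.00057). Ace, the angiotensin-converting enzyme, stood at 218 to 255 and 123 to 191 CPM (log2 change -0.76 ± 0.13, adjusted p = 0.00126). Scara5, a ferritin receptor of fibroblasts, stood at 129 to 186 and 91.3 to 117 CPM (log2 change -0.67 ± 0.13, adjusted p = 0.00631). None of these 4 genes overlapped between the groups, and all 4 were called in each fit that left out 1 library.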
